A study of Mus musculus with 9 samples.

Results

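Cadherins are calcium-dependent adhesion molecules of the cell surface, and the cadherin genes and non-clustered protocadherin genes were followed here in the cortex of newborn mice. Members were chosen by gene symbol: the numbered Cdh and Pcdh genes, Celsr1 to Celsr3, Fat1 to Fat4, Dchs1 and Dchs2, without the clustered Pcdha, Pcdhb and Pcdhg genes. The rule found 43 genes among 23852 listed in either of 2 deposited tables, and all 43 stood in both. By structure they are 5 classical type I cadherins, 13 type II cadherins, 4 other cadherins, 4 delta-1, 5 delta-2 and 3 other protocadherins, 3 seven-pass cadherins of the Celsr type, and 6 giant cadherins of the Fat and Dachsous type.

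RNA was sequenced from dissected cortex at postnatal day 0 in 9 bulk libraries, 3 in each group. The wild-type group was made of littermates. The ShhN IUE group came from brains given ShhN, the amino-terminal signalling fragment of Sonic hedgehog, by in utero electroporation. The SmoM2 group carried hGFAP-Cre and 1 conditional SmoM2 allele (hGFAP-Cre, SmoM2f/+). SmoM2 is a form of the Smoothened receptor that signals without ligand, and hGFAP-Cre, driven by a human glial promoter, recombines in radial glia of the dorsal forebrain. All groups shared a mixed background of C57BL/6J, 129S6 and CD1. Electroporation reaches part of the cells of a brain, and the labels give neither the construct nor the day. No electroporated group without ShhN is among the 9 libraries, so ShhN and electroporation cannot be told apart. Whether the 3 replicates in a group were separate animals is not in the labels, so each p-value reflects spread among libraries that may be technical. The same 3 wild-type libraries serve as controls in both tables.

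Classical cadherins join neighbouring cells through their outer domains and bind beta-catenin and p120-catenin inside the cell, and alpha-catenin links that complex to actin. In the developing cortex N-cadherin (Cdh2) holds the adherens junctions of radial glia at the ventricular surface, while type II cadherins and delta protocadherins mark subsets of neurons, layers and areas. Celsr genes act in planar cell polarity and in the laying of axon tracts, and Fat4 and Dchs1 form a receptor and ligand pair that bears on neural progenitors and neuronal migration.

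Total counts were 15376071 to 19604672 in ShhN IUE, 23625702 to 26923127 in SmoM2 and 18610507 to 21694348 in wild type (ShhN IUE table). Levels are given as CPM, the counts of a gene divided by its TMM-scaled library size, and a gene was called changed at an adjusted p under 0.05 in edgeR. Gli1, a target of hedgehog signalling, stood at 26.0, 27.7 and 68.9 CPM in ShhN IUE and 47.3, 42.7 and 49.96 in SmoM2, against 5.65 to 9.13 in wild type. Shh itself was at 2.59, 3.09 and 28.5 CPM in the ShhN IUE libraries, against 1.87, 2.82 and 1.70 in wild type. Replicate 3 thus stood apart, while replicates 1 and 2 were close to the highest wild-type library. Smo was at 84.1, 71.7 and 80.3 CPM in SmoM2 against 19.1 to 26.1 in wild type. In ShhN IUE it was at 35.4, 41.5 and 49.3 CPM against 19.6 to 26.4. Markers of other cell types also moved, on lists chosen with earlier results of these data known. Of all genes tested, 17.2% fell and 16.1% rose in ShhN IUE, and 9.29% fell and 9.59% rose in SmoM2. All 12 striatal projection neuron markers fell in both groups (summed CPM 48.8 to 57.6 in ShhN IUE against 239.7 to 318, and 53.1 to 62.7 in SmoM2 against 227 to 309.5), and 6 of 8 medial ganglionic eminence interneuron markers fell in both (355 to 472 against 599 to 672, and 351 to 393 against 619 to 692). All 8 cycling-cell markers rose in both (396 to 482 against 126 to 163, and 327 to 466 against 125 to 162), as did 7 of 9 olfactory bulb interneuron markers (968 to 1481 against 506 to 554, and 1125 to 1201 against 496 to 569). Cortical glutamatergic neuron markers, which define the labelled tissue, were present in every library, and 3 of 8 fell in ShhN IUE and 4 of 8 in SmoM2. No marker of these lists was at 0 throughout a group. The part of these lists in the changes below was not tested, and in bulk tissue fewer cells of a type and less RNA per cell cannot be told apart.

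In wild-type cortex the family spanned a wide range of levels per gene length. By the authors' FPKM, 11 members had a mean of at least 10, 31 had a mean of at least 1, and 12 lay below 1 (means of 3 libraries, ShhN IUE table). Cdh2 was the highest at 44.1 ± 2.82 FPKM (SD, n = 3), with libraries at 47.1, 41.5 and 43.7, followed by Celsr3 at 36.8 ± 4.65, Cdh4 at 26.8 ± 6.77, Dchs1 at 24.9 ± 2.93 and Celsr2 at 24.3 ± 1.57. The libraries of Celsr3 (32.1 to 41.4) all lay below those of Cdh2, whereas Cdh4, Dchs1 and Celsr2 overlapped one another. Cdh11, Cdh13, Fat3, Cdh24, Cdh6 and Fat4 filled the next places, at means of 20.9 down to 14.1 FPKM. At the other end, Cdh3, Cdh17, Cdh19, Cdh23, Cdh26 and Fat2 had means of 0.0131 to 0.158 FPKM. Cdh4 held rank 3 in wild type, rank 8 in ShhN IUE (15.3 ± 3.73 FPKM) and rank 12 in SmoM2 (7.87 ± 0.295 FPKM). Cdh2 and Celsr3 held ranks 1 and 2 in all groups, with their order exchanged in ShhN IUE, where Celsr3 was at 46.6 ± 0.858 and Cdh2 at 40.9 ± 1.16 FPKM.

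**Figure D1:**
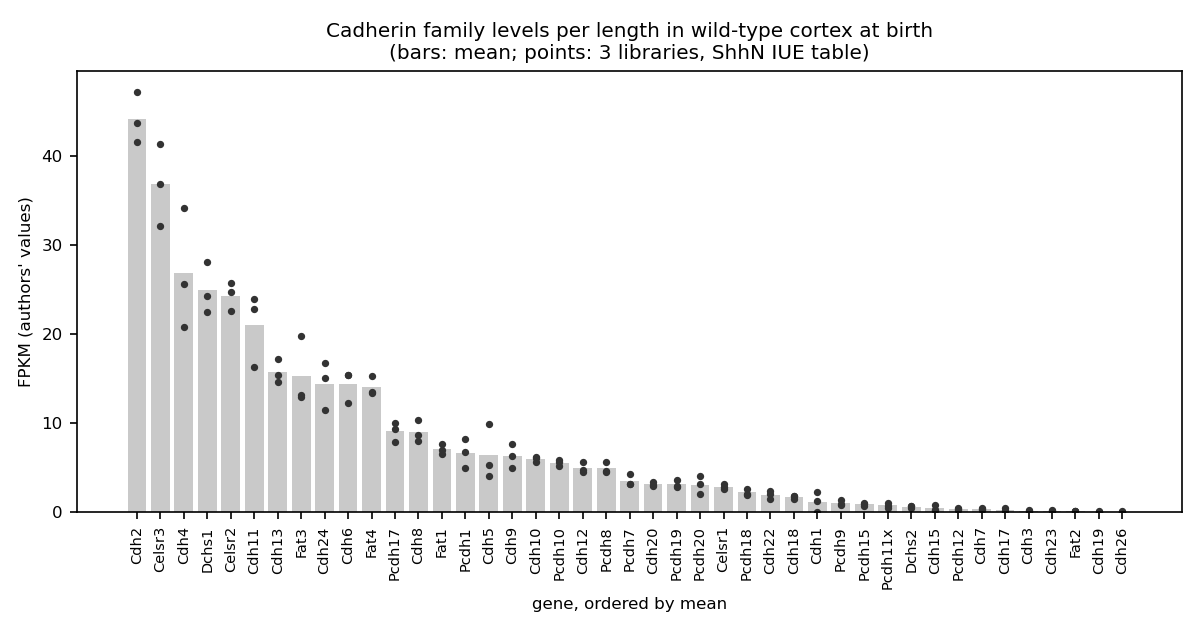
Level of each of the 43 genes in wild-type cortex, in the authors' FPKM (vertical axis), ordered by mean (bars, with the 3 libraries as points). Cdh2 and Celsr3 lead at 44.1 and 36.8 FPKM, and 12 genes lie below 1 FPKM.

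More members fell than rose in both groups. Against wild type, 38 of the 43 members had enough reads for the test in ShhN IUE, of which 8 fell and 4 rose. This makes 31.6% of the tested members, where 33.3% of all 16180 genes tested were called. By direction, 21.1% of the members fell (17.2% of all genes) and 10.5% rose (16.1% of all genes). Without ShhN IUE replicate 3, the library that stood apart, 7 members fell and 4 rose. In SmoM2, 39 members were tested, of which 7 fell and 3 rose. The called share was 25.6% of the members, where 18.9% of all 16485 genes tested were called. The members that fell made 17.9% (9.29% of all genes) and those that rose 7.69% (9.59% of all genes). The median log2 fold change over the tested members was -0.17 in ShhN IUE and -0.16 in SmoM2, and over all genes tested it was -0.0038 and -0.0072. The median size of change, regardless of direction, was 0.39 in both groups, against 0.40 over all genes in ShhN IUE and 0.26 in SmoM2. Not tested for low counts were Cdh3, Cdh17, Cdh19 and Cdh26 in both comparisons and Fat2 in ShhN IUE.

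The members that fell in ShhN IUE were Cdh4, Cdh8, Cdh9, Cdh11, Cdh13, Cdh18, Pcdh11x and Pcdh15, and those that rose were Pcdh8, Celsr1, Fat4 and Dchs1. In SmoM2 the members that fell were Cdh4, Cdh9, Cdh11, Cdh12, Cdh13, Cdh18 and Fat3, and those that rose were Cdh20, Celsr1 and Fat1. The comparisons share their controls, so a gene named in both is not independent evidence. In all, 16 members were called in at least 1 comparison and 27 in neither.

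**Figure D2:**
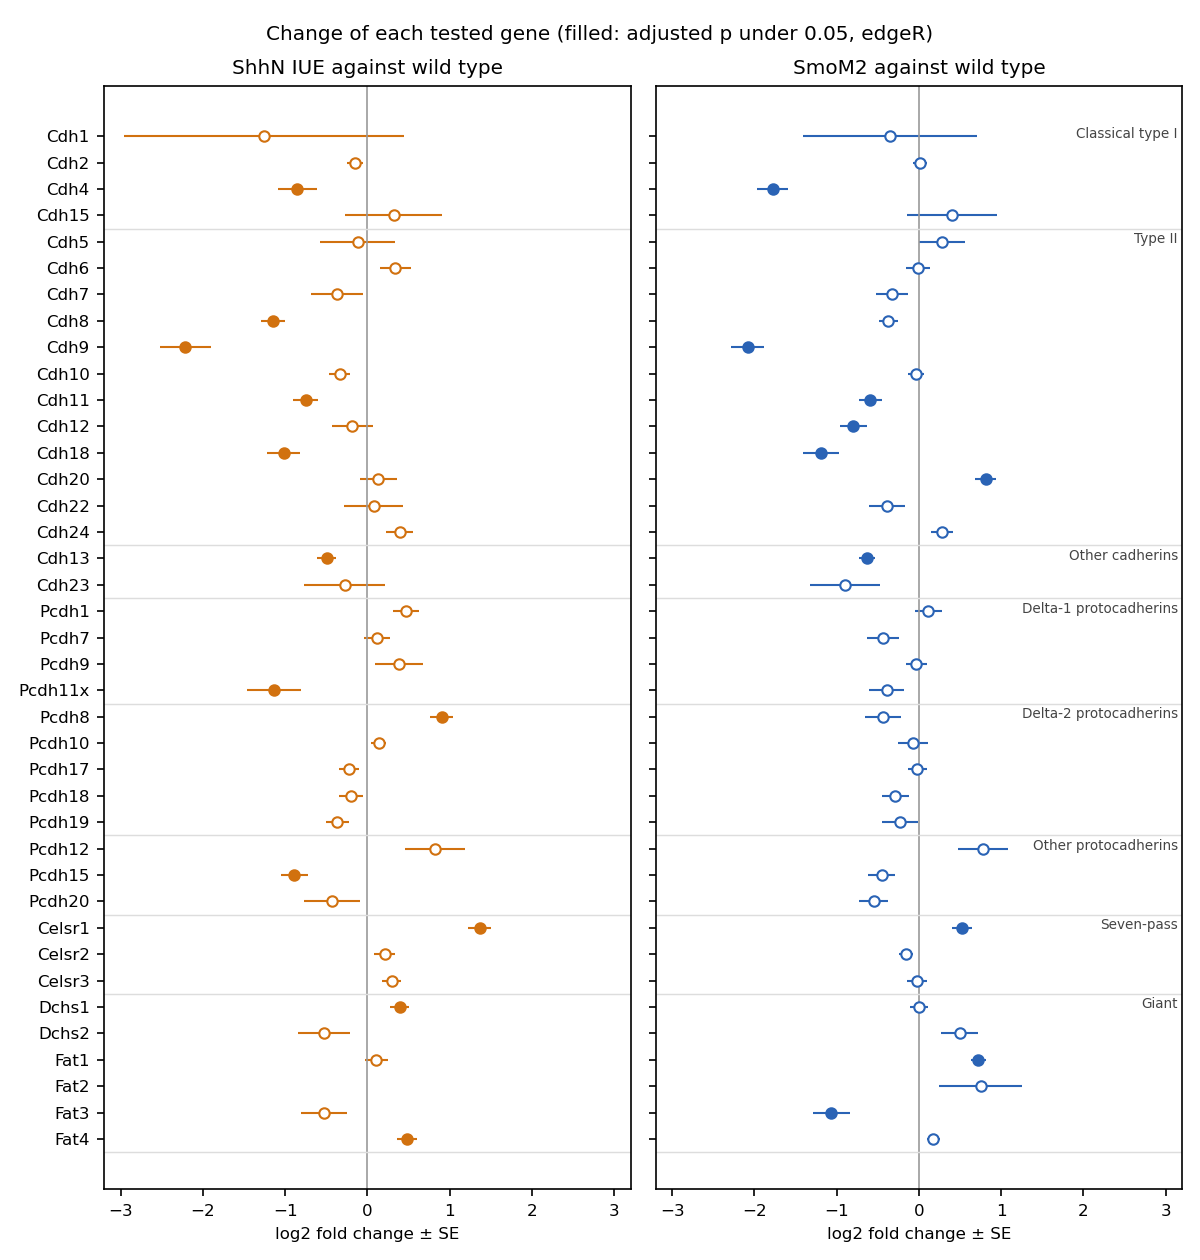
Log2 fold change (horizontal axis, ± SE) of each tested gene against the wild type of its table, in ShhN IUE (left) and SmoM2 (right), grouped by structure, with filled points for genes past an adjusted p of 0.05. Cdh9 has the lowest value in both panels (-2.22 and -2.08) and Celsr1 the highest in ShhN IUE (1.36).

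Among the type I cadherins, Cdh4 (R-cadherin, found on subsets of brain neurons) fell in both groups. Its level was 219, 168 and 286 CPM in wild type and 152, 132 and 88.8 in ShhN IUE, with every ShhN IUE library below every wild-type library. It was 1.81-fold lower (log2 fold change -0.85 ± 0.24 (SE), adjusted p = 0.0265) in ShhN IUE. That call was lost without any 1 of ShhN IUE replicate 2 or 3 or wild-type replicate 1 or 3 (adjusted p from 0.0536 to 0.08896). In SmoM2 the libraries lay close together at 63.6, 62.4 and 66.4 CPM, far below wild type at 216, 159.7 and 285, and Cdh4 was 3.43-fold lower (log2 fold change -1.78 ± 0.19 (SE), adjusted p = 0.000837). The SmoM2 call held in every alternative that was run.

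Cdh2, the N-cadherin of radial glial junctions and synapses, passed neither test. Its libraries stood at 473, 395 and 431 CPM in wild type, 386, 407 and 373 in ShhN IUE and 436, 439 and 428 in SmoM2. Wild type overlapped both groups, with log2 fold changes of -0.16 ± 0.097 (SE) in ShhN IUE (adjusted p = 0.249) and 0.0088 ± 0.085 (SE) in SmoM2 (adjusted p = 0.953). In the joint fit of all libraries described further on, the ShhN IUE libraries (566 to 623 CPM) lay below those of SmoM2 (648 to 666), and that difference did not pass the test either (log2 ratio 0.15 ± 0.082 (SE), adjusted p = 0.238). Cdh15 (M-cadherin, best known in muscle) had 9 to 43 counts a library and passed neither test (log2 fold change 0.40 in SmoM2), although without wild-type replicate 1 it was called higher in SmoM2 (log2 fold change 1.43, adjusted p = 0.0398). Cdh3 (P-cadherin) had at most 13 counts.

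Cdh1, the E-cadherin of epithelia, varied widely between libraries of the same group. Counts were 0, 265 and 121 in wild type, 0, 0 and 127 in ShhN IUE and 227, 35 and 125 in SmoM2, and neither comparison passed the test (adjusted p = 0.5997 and 0.847). A count of 0 allows up to 3 counts by counting error alone. The 3 libraries without a Cdh1 count, wild-type replicate 1 and ShhN IUE replicates 1 and 2, also had the lowest summed CPM of 6 meningeal and fibroblast markers, at 10.01, 15.4 and 26.2. The other libraries had sums of 164 to 760 CPM, with the highest in ShhN IUE replicate 3. None of those 6 markers passed the test in either comparison, and their part in the Cdh1 counts was not tested. Cdh5, the VE-cadherin of endothelium and a type II cadherin by sequence, also varied within groups, at 16.6, 38.6 and 21.3 CPM in wild type, 14.1, 15.4 and 41.3 in ShhN IUE and 35.01, 25.9 and 31.8 in SmoM2. It passed neither test (adjusted p = 0.864 and 0.533), although without wild-type replicate 2 it was called higher in SmoM2 (log2 fold change 0.71, adjusted p = 0.0337). The 8 endothelial markers summed to 155 to 239 CPM in wild type, 183 to 343 in ShhN IUE and 190.2 to 216 in SmoM2, and 1 of 8 (Flt1) rose in ShhN IUE and none in SmoM2.

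**Figure D3:**
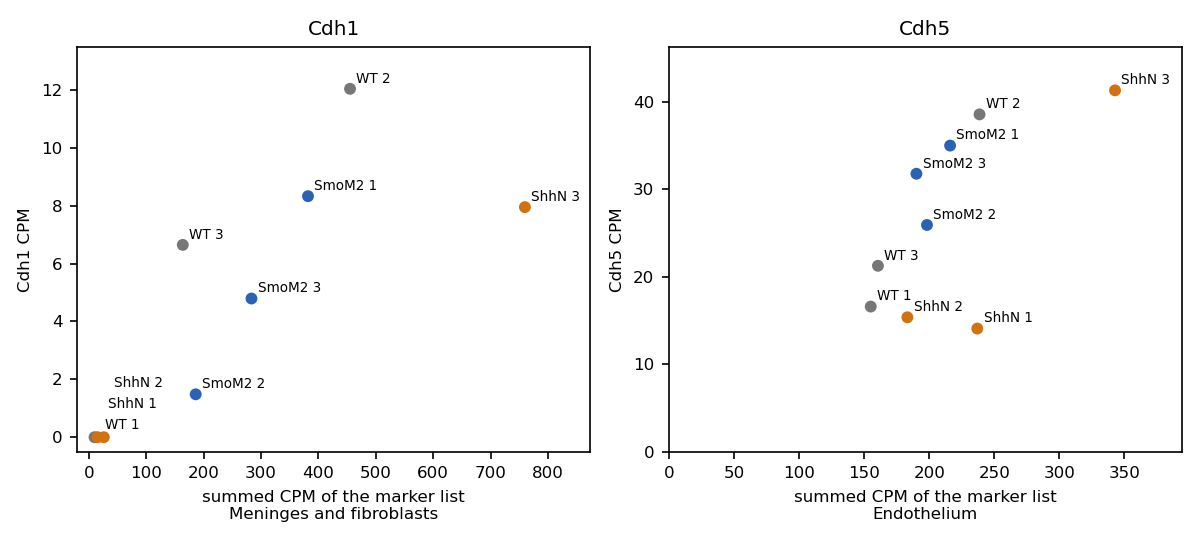
Cdh1 and Cdh5 level in each of the 9 libraries (vertical axes, CPM) against the summed CPM of the meningeal and endothelial marker lists (horizontal axes). The 3 libraries at 0 for Cdh1 lie at 10.01 to 26.2 summed CPM of meningeal markers, and ShhN IUE replicate 3 is the highest of all libraries on both horizontal axes.

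The type II cadherins, which bind one another selectively and mark groups of neurons, are the largest subfamily (13 members) and held the most falls. In ShhN IUE 4 of 12 tested members fell, where 17.2% of all genes tested fell. In SmoM2 4 of 12 fell and 1 rose, where 9.29% of all genes tested fell and 9.59% rose. Cdh9, an adhesion molecule of neuronal synapses, had the largest fold change of the called members in both groups. Wild-type libraries stood at 16.4, 19.9 and 25.2 CPM and ShhN IUE at 5.49, 5.16 and 2.505, with a wide gap between the groups. Cdh9 was 4.65-fold lower (log2 fold change -2.22 ± 0.31 (SE), adjusted p = 0.00204). In SmoM2 it stood at 4.37, 5.47 and 4.52 CPM against 16.2, 19.8 and 24.8 and was 4.24-fold lower (log2 fold change -2.08 ± 0.20 (SE), adjusted p = 0.000568). Both calls held in every alternative.

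Cdh18, which is also expressed in neurons, fell in both groups. It stood at 11.5, 8.27 and 11.3 CPM in wild type and 5.19, 4.87 and 5.26 in ShhN IUE, where it was 2.03-fold lower (log2 fold change -1.02 ± 0.20 (SE), adjusted p = 0.00789). In SmoM2 the libraries were at 3.49, 4.999 and 5.33 CPM against 11.5, 8.599 and 11.3, 2.27-fold lower (log2 fold change -1.19 ± 0.22 (SE), adjusted p = 0.008302). Neither group overlapped with wild type.

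Cdh11, first described in osteoblasts and also present in brain, stood at 71.3, 99.1 and 98.00 CPM in wild type, 54.6, 57.3 and 47.4 in ShhN IUE and 56.7, 61.6 and 57.98 in SmoM2. Wild-type replicate 1 was the lowest control, yet all ShhN IUE and SmoM2 libraries lay below it. Cdh11 was 1.68-fold lower (log2 fold change -0.75 ± 0.15 (SE), adjusted p = 0.00857) in ShhN IUE and 1.51-fold lower (log2 fold change -0.59 ± 0.14 (SE), adjusted p = 0.0226) in SmoM2. The SmoM2 call was lost without any 1 of SmoM2 replicate 1, 2 or 3 or wild-type replicate 2 or 3 (adjusted p from 0.0567 to 0.0958).

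Cdh8, a marker of particular cortical areas and layers and of the striatum, fell in ShhN IUE. Its libraries stood at 92.8, 80.5 and 109 CPM in wild type and at 38.7, 48.5 and 40.01 in ShhN IUE, and Cdh8 was 2.22-fold lower (log2 fold change -1.15 ± 0.15 (SE), adjusted p = 0.00164). In SmoM2 the 3 libraries, at 77.6, 79.6 and 75.96 CPM, also lay below all of their controls (98.3, 86.1 and 117), but the value did not pass the test (1.29-fold lower, adjusted p = 0.0633). It passed without wild-type replicate 2 (adjusted p = 0.0247) and in DESeq2 (adjusted p = 0.0312). Cdh12, a further neuronal type II cadherin, fell in SmoM2. Its ShhN IUE libraries were spread over 31.98, 26.8 and 15.5 CPM, overlapped wild type (26.3, 26.2 and 31.97) and were not called (adjusted p = 0.594). The SmoM2 libraries, at 12.8, 18.9 and 16.6 CPM, lay below all controls (26.1, 26.2 and 31.8), and Cdh12 was 1.74-fold lower (log2 fold change -0.80 ± 0.16 (SE), adjusted p = 0.0129). That call was lost without SmoM2 replicate 3 (adjusted p = 0.0531).

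Cdh20 was the single type II cadherin that rose, in SmoM2. It was at 22.3, 21.5 and 22.5 CPM there, nearly level across the group, against 13.99, 11.6 and 12.3 in wild type, with no overlap, and was 1.75-fold higher (log2 fold change 0.81 ± 0.12 (SE), adjusted p = 0.00395). In ShhN IUE its libraries were spread over 9.86, 14.6 and 17.2 CPM, around the wild-type values (14.1, 11.6 and 12.3), and the test was not passed (adjusted p = 0.678). The remaining tested type II members, Cdh6, Cdh7, Cdh10, Cdh22 and Cdh24, had log2 fold changes of -0.37 to 0.39 in ShhN IUE and -0.39 to 0.28 in SmoM2, with no call. Cdh10, for example, was at 61.1, 56.5 and 48.1 CPM in ShhN IUE, all below wild type at 73.9, 64.2 and 71.2, but missed the threshold (1.26-fold lower, adjusted p = 0.07195). Cdh19, known from the Schwann cell lineage, had at most 7 counts in a library.

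Cdh13 (T-cadherin), which is anchored to the membrane by a lipid and lacks the tail that binds catenins, fell in both groups. Its libraries stood at 219.8, 187 and 183 CPM in wild type and 156, 132 and 129 in ShhN IUE, without overlap, and it was 1.41-fold lower (log2 fold change -0.50 ± 0.12 (SE), adjusted p = 0.0139). In SmoM2 it was at 129.7, 135 and 126 CPM against 226, 193 and 187 and was 1.55-fold lower (log2 fold change -0.63 ± 0.095 (SE), adjusted p = 0.00364). Both calls held in every alternative. Cdh23, the tip-link cadherin of sensory hair cells, had 14 to 61 counts a library and was not called, and Cdh17 and Cdh26 had at most 38 and 12 counts.

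**Figure D4:**
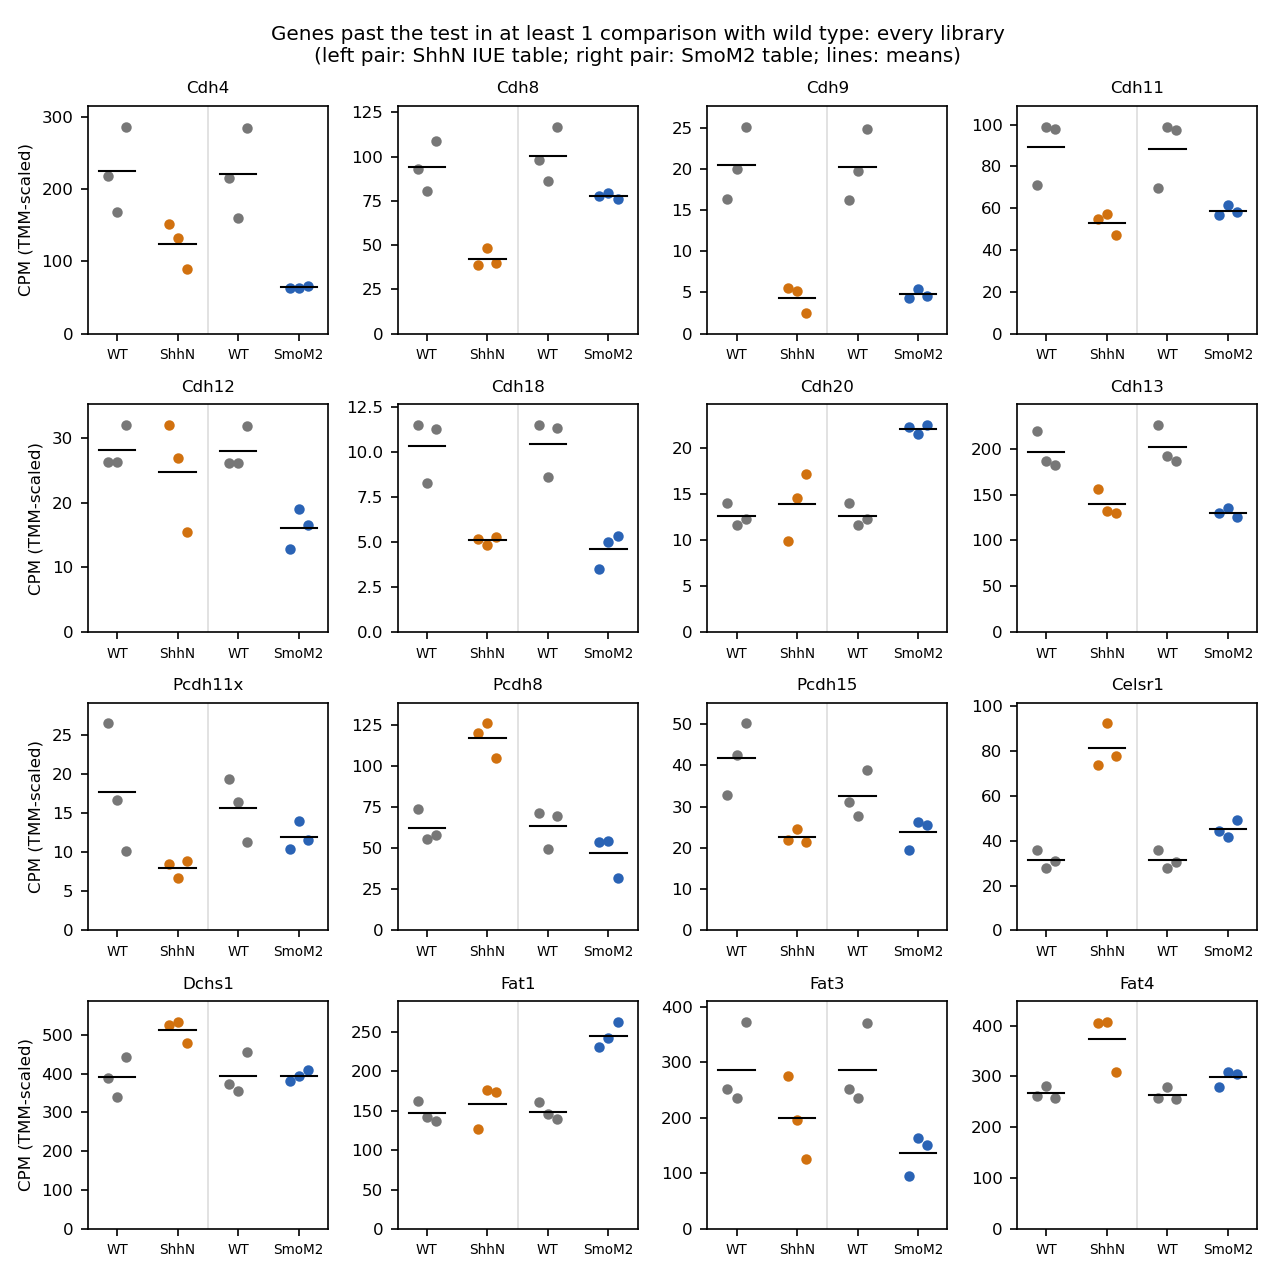
CPM of the 16 genes called in at least 1 comparison with wild type, for every library (points) with group means (lines), on axes that start at 0. The left pair of each panel is the ShhN IUE table and the right pair the SmoM2 table, and Cdh4, Cdh9, Cdh11, Cdh13 and Cdh18 lie below wild type in both pairs.

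The delta protocadherins have short conserved motifs in their tails and act in neuronal sorting, axon growth and synapses. Of the 9 delta members, Pcdh8 rose and Pcdh11x fell in ShhN IUE, and none was called in SmoM2 in edgeR, where none had an unadjusted p under 0.05 and none was called by DESeq2. Leaving out wild-type replicate 2 gave 1 delta call in SmoM2, Pcdh7, at a log2 fold change of -0.64 (adjusted p = 0.0213) against -0.44 with every library (adjusted p = 0.153). Pcdh8, also called arcadlin, is turned on by neuronal activity and trims N-cadherin from synapses. It stood at 73.9, 55.6 and 58.3 CPM in wild type and 120.3, 126 and 105 in ShhN IUE, where every library was above every control, and was 1.87-fold higher (log2 fold change 0.90 ± 0.14 (SE), adjusted p = 0.00286). In SmoM2 it was at 53.9, 54.6 and 32.2 CPM against 71.6, 49.7 and 69.5, with replicate 3 the lowest, and was not called (1.35-fold lower, adjusted p = 0.1999).

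Pcdh11x, an X-linked delta-1 protocadherin, was uneven in wild type at 26.6, 16.7 and 10.2 CPM, while the ShhN IUE libraries lay together at 8.54, 6.77 and 8.89. It was 2.21-fold lower (log2 fold change -1.14 ± 0.33 (SE), adjusted p = 0.0301) in ShhN IUE. The gap to the lowest control was small, and the call was lost without any 1 of ShhN IUE replicate 1, 2 or 3 or wild-type replicate 1 or 2 (adjusted p from 0.0516 to 0.0865) and in limma-voom (adjusted p = 0.0543). In the SmoM2 table Pcdh11x was at 10.4, 14.02 and 11.6 CPM against 19.4, 16.4 and 11.4 and was not called (adjusted p = 0.236). Its wild-type counts differed between the tables (summed 1064 and 944), so its level could not be set across them. Wild-type counts differed beyond a log2 ratio of 0.1 for 7 members in all, among them Pcdh9 (summed 1401 and 3577), Pcdh7 (4905 and 7126), Pcdh15 (2487 and 1925) and Pcdh20 (1570 and 1083).

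The other delta members had log2 fold changes of -0.37 to 0.47 in ShhN IUE and -0.44 to 0.12 in SmoM2. Pcdh1 was closest to a call in ShhN IUE, at 125, 115 and 114 CPM, all above wild type at 65.97, 103 and 87.5 (1.38-fold higher, adjusted p = 0.0511), and it passed under upper quartile scaling (0.0468), a 1 CPM filter (0.0496), DESeq2 (0.0228) and limma-voom (0.0445), and without wild-type replicate 2 (0.0257). Pcdh19, whose loss causes an epilepsy, was at 57.3, 70.6 and 55.9 CPM in ShhN IUE, all below wild type at 71.9, 89.97 and 75.6 (1.29-fold lower, adjusted p = 0.0727), and it passed in DESeq2 (0.04855) and without ShhN IUE replicate 2 (0.04697). Pcdh10 and Pcdh17, which guide axons and organise synapses, had log2 fold changes of 0.14 and -0.23 in ShhN IUE and -0.071 and -0.021 in SmoM2.

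Pcdh15, the partner of Cdh23 in the tip link and also a marker of oligodendrocyte precursors, fell in ShhN IUE. It was at 32.9, 42.6 and 50.2 CPM in wild type and 21.9, 24.6 and 21.5 in ShhN IUE, without overlap, and was 1.85-fold lower (log2 fold change -0.89 ± 0.17 (SE), adjusted p = 0.00593). Of 6 oligodendrocyte lineage markers, 5 rose in the same comparison (summed CPM 459 to 578 against 279 to 316). In SmoM2 Pcdh15 was at 19.4, 26.4 and 25.6 CPM, again below all controls (31.1, 27.8 and 38.8), and missed the threshold (1.37-fold lower, adjusted p = 0.0882). Pcdh12, a protocadherin of endothelium, and Pcdh20 were not called in either group. Pcdh20 was 1.46-fold lower in SmoM2 (adjusted p = 0.0625), and this passed without wild-type replicate 1 (0.0135) and in DESeq2 (0.0252).

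Celsr1, a core planar polarity gene expressed in dividing progenitors and later in ependymal cells, rose in both groups. It stood at 35.9, 27.9 and 31.04 CPM in wild type and 73.9, 92.3 and 78.02 in ShhN IUE, so that the lowest ShhN IUE library was well above the highest control. Celsr1 was 2.57-fold higher (log2 fold change 1.36 ± 0.14 (SE), adjusted p = 0.000886), the largest rise of the tested members in ShhN IUE. In SmoM2 it was at 44.3, 41.8 and 49.1 CPM against 35.7, 27.7 and 30.7, also without overlap, and was 1.44-fold higher (log2 fold change 0.52 ± 0.12 (SE), adjusted p = 0.0205). The SmoM2 call was lost without any 1 of SmoM2 replicate 1 or 3 or wild-type replicate 2 (adjusted p from 0.0554 to 0.0869). The cycling-cell and radial glia markers rose in the same comparisons: all 8 cycling markers in both, and 6 of 8 radial glia markers in ShhN IUE (summed CPM 1142 to 1385 against 624 to 912) and 5 of 8 in SmoM2 (1148 to 1261 against 633 to 863). Their part in the rise of Celsr1 was not tested.

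Celsr2 and Celsr3, which act mainly in neurons, were not called. Celsr2 was at 436, 435 and 335 CPM in ShhN IUE and 297, 318 and 322 in SmoM2, overlapping wild type (362, 314 and 369.5) in both. Celsr3, required for the major axon tracts of the forebrain, was at 654, 642 and 609 CPM in ShhN IUE, above all controls (531, 437 and 585) by a small margin (1.23-fold higher, adjusted p = 0.0868). Under upper quartile scaling it passed (adjusted p = 0.0428). In SmoM2 Celsr3 had a log2 fold change of -0.018 ± 0.12 (SE).

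Of the giant cadherins, the receptor Fat4 and its ligand Dchs1 rose in ShhN IUE. Fat4 was at 261, 282 and 258 CPM in wild type and 405, 407 and 309 in ShhN IUE, with replicate 3 lower than the other two but above all controls, and was 1.401-fold higher (log2 fold change 0.49 ± 0.12 (SE), adjusted p = 0.0184). Dchs1 was at 388, 340.3 and 443 CPM in wild type and 525, 533 and 478 in ShhN IUE, again without overlap, and was 1.31-fold higher (log2 fold change 0.39 ± 0.11 (SE), adjusted p = 0.0323). Neither call held in every alternative. The Fat4 call was lost without any 1 of ShhN IUE replicate 1 or 2 or wild-type replicate 1 or 3 (adjusted p from 0.0545 to 0.07296), and the Dchs1 call without any 1 of ShhN IUE replicate 1 or 2 or wild-type replicate 1 or 2 (adjusted p from 0.0714 to 0.101).

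Neither gene was called in SmoM2. Fat4 was at 279.9, 309 and 306 CPM against 257, 279.9 and 257 there (1.13-fold higher, adjusted p = 0.169), and Dchs1 at 379.7, 395 and 409 against 373, 354 and 455 (log2 fold change 0.0012 ± 0.10 (SE), adjusted p = 0.995).

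Fat1 and Fat3 moved in opposite directions in SmoM2. Fat1, which acts on actin and cell polarity and is present in radial glia, was at 231, 243 and 263 CPM in SmoM2 against 161, 146 and 139.8 in wild type and was 1.65-fold higher (log2 fold change 0.72 ± 0.089 (SE), adjusted p = 0.00168). Fat3, which shapes the dendrites of neurons, was at 95.7, 163 and 152 CPM, with replicate 1 the lowest, against 252, 235 and 371, and was 2.09-fold lower (log2 fold change -1.06 ± 0.23 (SE), adjusted p = 0.0157). In ShhN IUE both overlapped wild type. Fat1 was at 127, 176 and 174 CPM there (adjusted p = 0.589) and Fat3 at 276, 195 and 125 against 253, 235 and 373 (adjusted p = 0.182).

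Dchs2 was low, at 3.304, 3.205 and 6.39 CPM in ShhN IUE and 7.01, 10.7 and 8.397 in SmoM2 against 4.98, 7.04 and 6.54 in wild type, and was called in neither comparison, though it was called lower in ShhN IUE without ShhN IUE replicate 3 (adjusted p = 0.0412). Fat2, best known in cerebellar granule cells, had 1, 4 and 177 counts in ShhN IUE, 6, 32 and 6 in wild type and 37, 26 and 37 in SmoM2. The single high value was in ShhN IUE replicate 3, the library in which Shh (455 counts) and the meningeal markers were also highest. Fat2 was picked out after its values were seen. It was not called in SmoM2 (adjusted p = 0.328), but passed without wild-type replicate 2 (log2 fold change 1.68, adjusted p = 0.0234).

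The groups were compared with each other over the 36 members whose wild-type counts agreed between the tables, in a fit of all 9 libraries. CPM values in this comparison were scaled to the reads of the 12349 genes tested alone and so are higher than those above. Of 33 members tested, 10 differed: 4 were higher and 6 lower in SmoM2 than in ShhN IUE. This is 30.3% of the members tested, where 16.5% of all genes tested were called (8.45% higher and 8.07% lower in SmoM2).

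Pcdh8 differed most among the called members. It was at 82.04, 82.8 and 48.8 CPM in SmoM2 and 185, 193 and 159 in ShhN IUE, and was 2.51-fold lower (log2 fold change -1.33 ± 0.19 (SE), adjusted p = 0.00232) in SmoM2. Celsr1 was at 67.4, 63.4 and 74.4 against 114, 141 and 118 CPM, 1.82-fold lower (log2 fold change -0.86 ± 0.12 (SE), adjusted p = 0.002104). Cdh8 was at 118, 121 and 115 against 59.6, 74.3 and 60.7 CPM, 1.82-fold higher (log2 fold change 0.86 ± 0.13 (SE), adjusted p = 0.00245), and Fat1 at 351, 368 and 398 against 195, 269 and 264, 1.53-fold higher (log2 fold change 0.62 ± 0.12 (SE), adjusted p = 0.00887). The groups did not overlap for any of these 4 genes, and the calls of all 4 held in every alternative.

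The other 6 calls did not hold in every alternative. Cdh4 was 1.95-fold lower (adjusted p = 0.0138) in SmoM2, and the call was lost without any 1 of ShhN IUE replicate 1 or SmoM2 replicate 1 or 2 (adjusted p from 0.0508 to 0.06497). Dchs1 was 1.31-fold lower (adjusted p = 0.0265), lost without any 1 of ShhN IUE replicate 1 or 2 or SmoM2 replicate 1, 2 or 3 (adjusted p from 0.0668 to 0.1096). Cdh20 was 1.59-fold higher (adjusted p = 0.02999), lost without any 1 of ShhN IUE replicate 1 or SmoM2 replicate 1, 2 or 3 (adjusted p from 0.08196 to 0.0907). All 6 calls were lost without ShhN IUE replicate 1, and all 6 without SmoM2 replicate 1. Dchs2 was 2.02-fold higher (adjusted p = 0.0364), lost without any 1 of ShhN IUE replicate 1 or 2 or SmoM2 replicate 1, 2 or 3 (adjusted p from 0.0524 to 0.136). Pcdh1 was 1.38-fold lower (adjusted p = 0.0489), lost without any 1 of ShhN IUE replicate 1, 2 or 3, SmoM2 replicate 1, 2 or 3 or wild-type replicate 3 (adjusted p from 0.0588 to 0.159). Celsr2 was 1.298-fold lower (adjusted p = 0.0454), lost without any 1 of ShhN IUE replicate 1 or 2, SmoM2 replicate 1, 2 or 3 or wild-type replicate 1, 2 or 3 (adjusted p from 0.0514 to 0.184). The Pcdh1 and Celsr2 calls were also lost with no filter on low counts (adjusted p = 0.062 and 0.0702). Some members that were not called passed in an alternative: Cdh5, Cdh6, Cdh12 and Fat4 without ShhN IUE replicate 3 (adjusted p from 0.00581 to 0.0435), Cdh12 and Fat4 also in DESeq2, and Celsr3 in DESeq2, in limma-voom and without wild-type replicate 2 or 3 (adjusted p from 0.0263 to 0.0462). Cdh9, Cdh11, Cdh13 and Cdh18, which were called lower in each comparison with wild type, had log2 ratios of SmoM2 to ShhN IUE of 0.10 ± 0.28 (SE), 0.13 ± 0.14 (SE), -0.11 ± 0.10 (SE) and -0.16 ± 0.21 (SE), none of them past the threshold (adjusted p = 0.829, 0.535, 0.504 and 0.635). Pcdh11x and Pcdh15, called in ShhN IUE alone, were not compared because their wild-type counts differed between the tables.

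**Figure D5:**
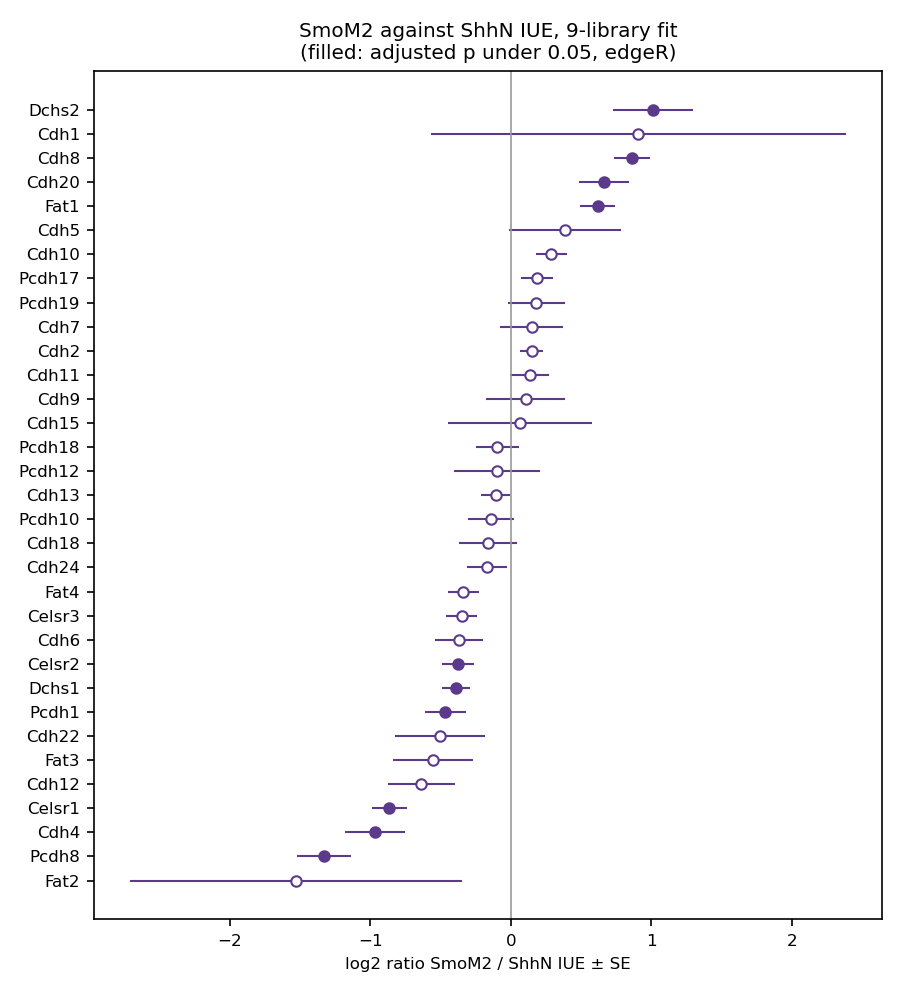
Log2 ratio of SmoM2 to ShhN IUE (horizontal axis, ± SE) for the 33 genes tested in the fit of all 9 libraries, with filled points past an adjusted p of 0.05. Called genes run from Pcdh8 (-1.33) to Dchs2 (1.01), and Cdh1 has the widest error.

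Promoter windows are shown for 3 members that differed between SmoM2 and ShhN IUE: Pcdh8, which rose in ShhN IUE, Cdh8, which fell there, and Cdh20, which rose in SmoM2. The RefSeq start of each lies within 9 bases of the gene's 5′ end in the tables. Each run is the 250 bases before the start, 5′ to 3′ on the gene's strand, from RefSeq on GRCm38.p6: Pcdh8 at chr14:79771313-79771562 (minus strand), Cdh8 at chr8:99416472-99416721 (minus strand) and Cdh20 at chr1:104768270-104768519 (plus strand). Capitals mark a TATAAA match.
Pcdh8: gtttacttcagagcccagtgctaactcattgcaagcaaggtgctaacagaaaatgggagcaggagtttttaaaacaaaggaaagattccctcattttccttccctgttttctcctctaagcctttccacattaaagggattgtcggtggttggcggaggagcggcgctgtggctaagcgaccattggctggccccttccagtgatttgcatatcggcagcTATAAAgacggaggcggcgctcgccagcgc
Cdh8: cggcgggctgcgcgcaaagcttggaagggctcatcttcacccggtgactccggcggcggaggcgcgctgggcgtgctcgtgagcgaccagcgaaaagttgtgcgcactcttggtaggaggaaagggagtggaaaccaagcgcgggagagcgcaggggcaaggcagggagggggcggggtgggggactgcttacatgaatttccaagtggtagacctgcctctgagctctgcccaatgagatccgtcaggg
Cdh20: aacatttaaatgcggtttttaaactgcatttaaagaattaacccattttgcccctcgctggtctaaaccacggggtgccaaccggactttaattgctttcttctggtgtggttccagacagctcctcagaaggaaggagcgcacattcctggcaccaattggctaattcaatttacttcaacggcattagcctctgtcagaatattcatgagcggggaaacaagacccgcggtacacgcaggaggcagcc
Windows of this length were matched for 29 of the 43 members and searched on both strands for 3 motifs. The GLI site GACCACCCA was in 0 of 29 member windows and in 0.23% of all 32851 windows, the homeodomain core TAATTA in 0 of 29 and 4.84%, and TATAAA in 2 of 29 (Pcdh8 and Pcdh15) and 12.37%. Of the 29 windows, 22 lie within 1000 bases of the gene's 5′ end in the tables, and TATAAA was in 1 of these (Pcdh8) and the other motifs in none. The other 7 windows, those of Cdh9, Cdh10, Cdh18, Fat1, Fat2, Fat3 and Pcdh15, lie 1382 to 722525 bases from it. These are matches of letters in a short window, and no match says nothing about more distant sites. Member windows had a median GC content of 58.0% and 11 CpG sites (61.4% and 14.5 in the 22 near windows), against 52.4% and 6 over all windows.

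Of 50 tested genes that work with cadherins (catenins, junction scaffolds and nectins, planar polarity proteins, the Fat and Dachsous pathway, cadherin proteases and delta protocadherin partners), 12 rose and 7 fell in ShhN IUE, and 7 rose and 2 fell in SmoM2. These are 38.0% and 18.0% of the partners tested, close to the 33.3% and 18.9% of all genes tested that were called, so the counts do not set the partners apart. Among the catenins, Ctnna1, the alpha-catenin of epithelia and neural progenitors, rose 2.21-fold in ShhN IUE (adjusted p = 0.00376) and 2.01-fold in SmoM2 (adjusted p = 0.00295). Jup (plakoglobin), a relative of beta-catenin, rose 1.81-fold and 1.75-fold (adjusted p = 0.00155 and 0.00843). In the junction list, Numb, which sorts cadherins and Notch in progenitors, rose 2.19-fold and 1.89-fold (adjusted p = 0.00203 and 0.02897), while the nectin Pvrl1 rose 1.38-fold and the nectin Pvrl3 fell 1.56-fold in ShhN IUE.

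Of the 10 planar polarity partners of Celsr, 3 rose and 2 fell in ShhN IUE and 2 fell in SmoM2. Prickle1, a cytoplasmic polarity protein, fell 2.02-fold and 1.98-fold (adjusted p = 0.00372 and 0.002998), in the comparisons in which Celsr1 rose. Dvl2 rose 1.75-fold and Ptk7 1.38-fold in ShhN IUE (adjusted p = 0.00848 and 0.0176). In the Fat and Dachsous list, Tead2, a DNA-binding partner of Yap1, rose 2.25-fold and 2.12-fold, and Lix1l, a relative of the fly gene lowfat, rose 2.02-fold and 1.798-fold. The 5 cadherin proteases, which shed or cut cadherins at the membrane, had log2 fold changes of -0.30 (Adam10) to 0.57 (Mmp14) in ShhN IUE and -0.22 (Psen2) to 0.57 (Mmp14) in SmoM2, and passed no test against wild type. Adam10 was 1.45-fold higher in SmoM2 than in ShhN IUE when the groups were compared directly (adjusted p = 0.00561). Of the 3 proteases tested there, the other 2 were not called. Of the 7 delta protocadherin partners, 3 fell in ShhN IUE, among them Abi1 (1.57-fold) and Wasf1 (1.48-fold) of the WAVE actin complex, and the kinase gene Taok2 rose 1.42-fold. The same 7 had log2 fold changes of -0.15 (Cyfip2) to 0.099 (Ppp1ca) in SmoM2. Compared directly, Wasf1 was 1.38-fold higher in SmoM2 than in ShhN IUE and Taok2 1.44-fold lower (adjusted p = 0.003703 and 0.00261).

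The members that fell spanned longer stretches at the median than the family as a whole, a property that the choice by symbol did not use. The 10 members that fell in at least 1 comparison spanned a median of 473 kb in the tables (79.0 to 1550 kb), the 6 that rose 121 kb (4.5 to 227 kb) and the 27 called in neither 66.9 kb. All 43 members had a median of 117 kb, close to that of the members that rose. The 27 include the members with too few counts to test. Across the SmoM2 table, untested genes included, the median gene spans 15.3 kb. These lengths are a description, with no test, and the lengths of all genes that fell or rose were not set beside them. Cdh6, Cdh9, Cdh10, Cdh12 and Cdh18 lie on chromosome 15 between 13034200 and 23474418, and of these Cdh9 (16778101 to 16857094) and Cdh18 (22549022 to 23474418) fell in both groups, Cdh12 fell in SmoM2, and Cdh6 and Cdh10 were not called.

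Exons of 12 members overlap another annotated gene in GENCODE M21, and no label or header says whether the authors' counting used strand, so reads of opposite-strand neighbours cannot be told apart. The overlap covers 648 bases of Dchs1 (Gm15645), 1209 of Fat4 (C230034O21Rik), 487 of Fat1 (Gm2366), 436 of Pcdh8 (Gm9748) and 23 of Cdh8 (Gm15679). C230034O21Rik had 170 to 366 counts a library, where Fat4 had 4689 to 7970, and the other 4 had at most 32. Cdh9 (224 bases, Gm49127, opposite strand) and Cdh12 (198 bases, Gm49685, same strand) overlap genes that have no counts in the tables. Dchs2, called between the groups, overlaps Gm10710 over 1299 bases. Gm10710 had 6 to 27 counts a library, where Dchs2 had 54 to 253. In the authors' deposited tables the members marked as changed were Celsr1 (up), Cdh8, Cdh9 and Pcdh11x (down) in ShhN IUE, and Cdh4, Cdh9, Cdh18 and Fat3 (down) in SmoM2. The mark did not follow the authors' q-value alone. Unmarked members included Pcdh8 (authors' q = 2.05e-05) and Pcdh15 (0.00107) in ShhN IUE, and Fat1 (9.01e-06) and Cdh20 (0.000623) in SmoM2. Of the members called here, only Dchs1 in ShhN IUE had an authors' q above 0.05 (0.0647).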

How the data were processed

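RNA from postnatal day 0 cortex was measured in 9 libraries, 3 each of wild type, ShhN IUE and SmoM2, grouped by sample title. The authors deposited 2 tables, which hold, per the file headers, a read count and an FPKM value for each library, with a q-value from the authors' test. Tools named in the submitters' processing notes are HISAT2, StringTie and edgeR, without versions, and the builds named there are GRCm38.p4 and mm10. Strand use and the treatment of reads shared between genes are not given in the sources used here. The wild-type counts of the tables agree for 36 of the 43 members, so each group was tested only against the wild type of its own table.

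Counts were tested over all genes past filterByExpr with the edgeR 4.0.16 quasi-likelihood F test (R 4.3.3, TMM scaling, Benjamini-Hochberg adjustment over all genes tested, threshold 0.05), checked first on simulated counts. CPM values use TMM-scaled library sizes, and SE is the log2 fold change divided by the square root of F. FPKM was used only to compare levels between genes. SmoM2 was compared with ShhN IUE in 1 fit of 9 libraries over genes whose summed wild-type counts agree within a log2 ratio of 0.1 (5 counts added), using the rounded mean of each wild-type library's counts in the tables. Total counts of 15376071 to 26923127 per library set the precision. Alternatives were RLE and upper quartile scaling, no filter or 1 CPM in 3 libraries, DESeq2 1.42.0, limma-voom 3.58.1, a replicate block, wild-type tolerances of 0.05 and 0.2, and each library left out.

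Values in every library are given for members called in at least 1 comparison with wild type at a mean of at least 5 CPM, and for Cdh1, Cdh2, Cdh4, Cdh5, Cdh13, Fat4 and Dchs1. Partner genes named as changed are among the 2 largest rises and falls past the threshold of each list, and not all of these are named. Other partner genes are named only as the ends of a range. Members, marker lists and partner lists were chosen with earlier results of these data known. Promoter sequences are from RefSeq and exon overlaps from GENCODE M21, on GRCm38, where 30 of the 43 members have the coordinates given in the tables.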

Additional observations from a re-analysis of the deposited data

How the results depend on the processing

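Directions of the called members did not change in any alternative run. Of the members called, 8 of 12 in ShhN IUE against wild type, 7 of 10 in SmoM2 against wild type and 4 of 10 in SmoM2 against ShhN IUE passed in every alternative that tested them. Leaving out each library in turn gave 8 to 11 members called in ShhN IUE (2 to 4 rose, 6 to 7 fell), 7 to 12 in SmoM2 (2 to 4 rose, 5 to 8 fell) and 4 to 14 between the groups (2 to 6 higher, 2 to 8 lower in SmoM2). The rises in ShhN IUE were 2 without ShhN IUE replicate 1 or 2 or wild-type replicate 1. Between the groups, 4 members were called without ShhN IUE replicate 1 or SmoM2 replicate 1 or 2, 5 without SmoM2 replicate 3 and 6 without ShhN IUE replicate 2. Over all genes the calls were 3251 to 4624 (5380 with every library), 1334 to 3010 (3112) and 834 to 2336 (2040). Where a group is left with 2 libraries, the pooled spread is used and fewer samples enter the test. Fat2, not called between the groups (log2 ratio -1.53, from -2.11 to 3.16 with 1 library left out), took the opposite sign without ShhN IUE replicate 3, at 3.16 (adjusted p = 0.0264), since that library alone held 177 of its counts in ShhN IUE.

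With the replicate number as a block, 9, 10 and 7 members were called, and over all genes 3962, 2468 and 1499. Calls not made under the block were Cdh4, Pcdh11x and Dchs1 in ShhN IUE (adjusted p = 0.0585, 0.0502 and 0.0708) and Cdh20, Pcdh1 and Celsr2 between the groups (0.0539, 0.0502 and 0.0834). The numbers do not pair the libraries: deviations of same-numbered libraries correlated at 0.28, -0.32 and -0.063 (ShhN IUE with wild type) and -0.12, -0.17 and 0.055 (SmoM2 with wild type), and not every library correlated best with its own number. Scaling, filter, tolerance and the other tools gave 12 to 14, 10 to 12 and 8 to 13 members called. Depth limits Cdh3, Cdh17, Cdh19, Cdh26 and, in ShhN IUE, Fat2, which had too few counts to test.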
